A study of Mus musculus with 32 samples.

Results

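The genes of bile acid synthesis, transport and sensing were followed in whole mouse liver. The set held 32 genes chosen by symbol for their known role, out of 55487 genes in the table. No measured value entered the rule, but earlier results of these data were known when the set was chosen. Of these, 30 were among the 14903 genes with enough counts to be tested; Slc51a and Gpbar1 were not. The livers came from wild-type (WT) mice and from mice labelled FAAH S268D. FAAH, fatty acid amide hydrolase, breaks down fatty acid amides, N-acyl taurines included, and S268D names a replaced residue in it. In the series text the feed is HFFC, given with or without ARA for 28 weeks; NASH and NASH-AA are the diet names in the labels of the samples. The 4 groups were WT NASH, WT NASH-AA, FAAH S268D NASH and FAAH S268D NASH-AA, with 8 libraries each. No group on a plain diet is among them, so every comparison is between livers of mice on one of these 2 diets. Sex, age, zygosity and whether each library is a separate mouse are not in the labels, so p-values measure the spread between these libraries, which may in part be technical.

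Libraries held a median of 22896702 counts. The shallowest, FAAH S268D NASH replicate 1, held 3851626, the next 14743252 and the deepest 34370179, so genes of low counts are least precise in that replicate. The 8 FAAH S268D NASH libraries did not form 1 cluster: replicates 1 to 4 stood apart from replicates 5 to 8 along the first principal component of all genes and in the levels of several members, described with their values below. Levels are given as CPM, counts scaled to a common library size after TMM scaling, a correction for differences in library composition. Differences are log2 fold changes with their standard error over 8 libraries per group, from limma-voom, and a gene is called higher or lower where its p, adjusted over all genes tested, is under 0.05. In bulk RNA, fewer cells of a type and less RNA per cell cannot be told apart. The S268D change alters the protein, so the level of its own mRNA does not check the genotype labels: Faah ran from 132 to 187 CPM in WT NASH and from 163 to 227 in FAAH S268D NASH. The liver label held up against hepatocyte genes: 15 of 15 hepatocyte markers were tested and together gave 67319 to 96234 in WT NASH, 86183 to 105559 in WT NASH-AA, 77274 to 127466 in FAAH S268D NASH and 101550.0 to 117598 in FAAH S268D NASH-AA summed CPM.

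Bile acids are made from cholesterol in hepatocytes. The classic pathway starts with CYP7A1, which sets its rate, and the acidic pathway starts with side-chain oxidation by CYP27A1. The finished acids are joined to taurine in mice, pumped into bile by the bile salt export pump, and taken back from portal blood by transporters on the basolateral side of the hepatocyte. The nuclear receptor FXR senses bile acids, raises export genes and the repressor SHP, and so lowers synthesis; gut FGF15 acts to the same end through FGFR4 and beta-Klotho on the hepatocyte.

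Upstream sequence was examined because FXR binds an inverted repeat of 2 half-sites. RefSeq windows on GRCm38.p6 were matched for 25 of the 32 genes, 31 windows in all, and the 250 bases before each start site were searched on both strands. An inverted repeat of the half-site AGGTCA with 1 base between (IR1), with 1 mismatch allowed, was in 2 of the 31 windows, those of Abcb11, the bile salt export pump, and Slco1b2, a basolateral uptake carrier. They are printed 5′ to 3′ on the strand of the gene, with the match in capitals, and Abcb11 was added to the display after the match was seen. Abcb11 was called in none of the comparisons below, while Slco1b2 was higher with NASH-AA. Nr0b2, which encodes SHP and was higher in FAAH S268D, is shown for comparison.
Abcb11 (chr2:69342617-69342866, minus strand): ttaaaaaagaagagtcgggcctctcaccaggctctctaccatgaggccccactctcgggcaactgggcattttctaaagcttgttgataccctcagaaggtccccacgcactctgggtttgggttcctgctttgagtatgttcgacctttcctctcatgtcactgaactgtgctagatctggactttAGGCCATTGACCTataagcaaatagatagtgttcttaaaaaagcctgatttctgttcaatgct
Slco1b2 (chr6:141629268-141629517, plus strand): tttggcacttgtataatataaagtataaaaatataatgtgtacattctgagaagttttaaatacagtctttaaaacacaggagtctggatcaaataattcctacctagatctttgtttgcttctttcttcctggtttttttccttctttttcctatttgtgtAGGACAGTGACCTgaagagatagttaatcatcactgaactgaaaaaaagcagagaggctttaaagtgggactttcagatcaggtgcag
Nr0b2 (chr4:133553126-133553375, plus strand): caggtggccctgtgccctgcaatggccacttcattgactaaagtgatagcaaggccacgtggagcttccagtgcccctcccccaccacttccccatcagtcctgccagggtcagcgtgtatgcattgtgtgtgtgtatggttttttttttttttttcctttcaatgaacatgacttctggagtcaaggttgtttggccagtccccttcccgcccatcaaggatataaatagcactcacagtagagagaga
The Abcb11 match AGGCCATTGACCT lies at -63 to -51 from the start site and the Slco1b2 match AGGACAGTGACCT at -88 to -76. Because the repeat is nearly its own reverse complement, each was found on both strands. The same 1-mismatch form was present in 0.0791% of 32851 windows of this length, and the exact form in 0.00609% and in 0 of the 31 windows of the set. The half-site TCAAGGTCA, bound by NR5A2, was in 0 of 31 windows with 1 mismatch allowed, against 6.35% of all windows. A direct repeat of AGGTCA with 1 base between (DR1) was found with 1 mismatch in 1 window of the set, that of Slco1a1, against 0.484% of all. These matches are descriptions of the letters, and a window without one says nothing of the factor.

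Per kilobase of exon, the set spanned several orders of magnitude. Scp2, the peroxisomal thiolase of side-chain shortening, had the highest mean at 958 CPM per kb, followed by the acyl-CoA synthetase Slc27a2 at 390 and the bile acid-CoA ligase Slc27a5 at 299. Abcb11 stood at 74.4 CPM per kb, Nr1h4 (FXR) at 47.4, Nr0b2 at 32.4 and Cyp7a1 at 22.9. At the low end came Cyp39a1 at 2.32, Abcc4 at 1.42 and Slc51b at 0.518 CPM per kb. Slc51a, the partner of Slc51b, had 10 counts over all 32 libraries. Gpbar1, the membrane receptor TGR5, had 29.

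Averaged over both diets, FAAH S268D livers had more mRNA for the enzymes Slc27a5, Akr1d1, Hsd3b7, Amacr and Slc27a2, the uptake carriers Slco1a4 and Slco2b1, and Nr0b2 (SHP). They had less for the phospholipid flippase Abcb4 and the exporter subunit Slc51b. Of the 30 genes 10 were called, 8 higher and 2 lower, or 33.3%. The share of all genes called in that comparison was 17.2%, with 6.9% higher and 10.3% lower. The median log2 fold change of the 30 was 0.13, against 0.00 over all genes tested. Averaged over both genotypes, NASH-AA livers had more mRNA for Cyp7b1, Akr1d1, Slc27a5, Cyp2c70, Slco1b2 and Slco2b1, and less for Slc51b. That was 7 of 30, or 23.3%, against 10.9% of all genes (4.62% higher, 6.27% lower), with a median of 0.12 against 0.01.

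Comparisons of 2 groups called fewer. The genotype effect on NASH called 3 of 30 genes, all higher (Slc27a5, Hsd3b7 and Amacr), against 9.18% of all genes (2.89% higher, 6.29% lower). On NASH-AA it called 1, Slco1a4, which was higher, against 0.658% (0.349% higher, 0.309% lower). The diet effect in WT called 1, Slco2b1, also higher, against 4.41% (1.44% higher, 2.97% lower). In FAAH S268D the diet effect called 0 of 30 by limma-voom, against 0.0939% of all genes (0.0268% higher, 0.0671% lower); 9 had an unadjusted p under 0.05 and limma-trend called 0. The comparisons share groups (WT NASH serves 2 of them), so their counts are not independent. In all 5 of these called cases the 2 groups' ranges overlapped. Across the 7 contrasts, 13 of the 30 tested genes were called at least once and 17 were never called. The share of all genes called at least once was not counted, so the 13 cannot be set against it.

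**Figure D1:**
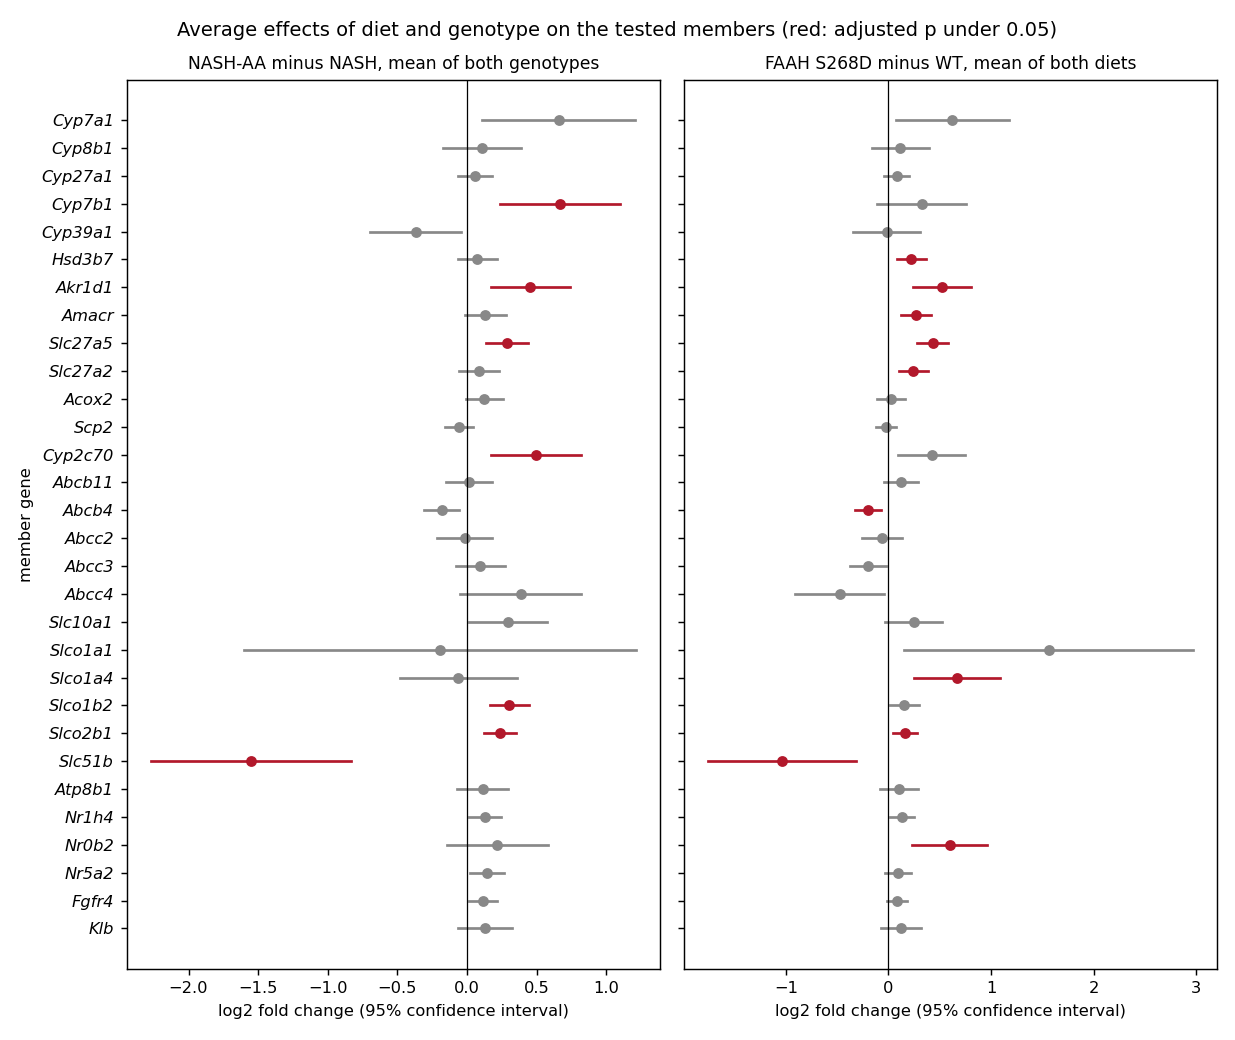
Log2 fold change (x axis) with its 95% confidence interval for each of the 30 tested genes (y axis), NASH-AA minus NASH on the left and FAAH S268D minus WT on the right. Red marks the 7 and 10 genes with an adjusted p under 0.05. Slc51b lies to the left of 0 in both panels, and Slc27a5 and Akr1d1 to the right in both.

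The classic pathway enzymes were called in no comparison. Cyp7a1 (chr4:6265612-6275633, minus strand, GRCm38), the rate-setting cholesterol 7-alpha-hydroxylase, had its highest levels in FAAH S268D NASH-AA. In WT NASH, Cyp7a1 ran from 19.4 to 150.5 CPM with a median of 53.8, and in WT NASH-AA from 45.1 to 146 with a median of 67.8. In FAAH S268D NASH, Cyp7a1 ran from 22.3 to 143 CPM with a median of 84.8, and in FAAH S268D NASH-AA from 49.3 to 184 with a median of 172. Of the FAAH S268D NASH-AA libraries, 7 of 8 lay between 121 and 184 CPM, above the WT NASH-AA median, and replicate 3 lay at 49.3. The genotype effect on NASH-AA was 0.93 ± 0.38 (SE, adjusted p = 0.238), with a 95% interval of 0.15 to 1.71. The average diet effect was 0.66 ± 0.27 (SE, adjusted p = 0.103) and the average genotype effect 0.62 ± 0.27 (SE, adjusted p = 0.106). Without FAAH S268D NASH-AA replicate 3, both averages passed the threshold, at 0.76 (adjusted p = 0.0457) for diet and 0.73 (adjusted p = 0.0461) for genotype. Without FAAH S268D NASH replicate 8, which held 22.3 CPM, the average genotype effect was 0.75 (adjusted p = 0.0367).

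Cyp8b1 (chr9:121914356-121916305, minus strand) is the sterol 12-alpha-hydroxylase that directs synthesis to cholic acid. The WT libraries held 119 to 379 CPM of Cyp8b1 on NASH (median 266) and 159 to 409 on NASH-AA (median 314). The FAAH S268D libraries held 230.3 to 448 CPM of Cyp8b1 on NASH (median 283) and 224 to 348 on NASH-AA (median 266). All 4 ranges overlapped, and the FAAH S268D NASH-AA libraries were the least spread. Averaged over genotypes, the diet effect was 0.11 ± 0.14 (SE, adjusted p = 0.631), with a 95% interval of -0.17 to 0.39, and the average genotype effect 0.12 ± 0.14 (SE, adjusted p = 0.613), with an interval of -0.16 to 0.39.

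Of the 3 acidic pathway hydroxylases, 1 was called, for the average diet effect, which called 10.9% of all genes. Cyp7b1 (chr3:18071950-18243338, minus strand), the oxysterol 7-alpha-hydroxylase, was higher with NASH-AA. Cyp7b1 stood at 20.9 to 61.6 CPM (median 39.8) in WT NASH and at 55.4 to 143 (median 69.5) in WT NASH-AA. Cyp7b1 stood at 26.4 to 146 CPM (median 65.7) in FAAH S268D NASH and at 43.6 to 156 (median 73.7) in FAAH S268D NASH-AA. The lowest WT NASH-AA library lay above 6 of the 8 WT NASH libraries, while the FAAH S268D groups overlapped broadly. Over both genotypes, the diet effect was 0.67 ± 0.21 (SE, adjusted p = 0.0387). In WT alone the difference was 0.94 ± 0.30 (SE, adjusted p = 0.0579) and in FAAH S268D 0.39 ± 0.30 (SE, adjusted p = 0.621). The call was lost in 15 of the 32 fits that left out 1 library, up to adjusted p = 0.078 without FAAH S268D NASH replicate 5. In library numbers 1 to 16 alone the value was 0.09 (adjusted p = 0.959) and in numbers 17 to 32 alone 1.29.

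Cyp27a1 (chr1:74713574-74737892, plus strand), the sterol 27-hydroxylase, was not called. For Cyp27a1, the lowest, median and highest WT libraries were at 267, 282 and 336 CPM on NASH, and at 291, 333 and 373 on NASH-AA. For Cyp27a1, the lowest, median and highest FAAH S268D libraries were at 234, 331 and 411 CPM on NASH, and at 287, 324 and 341 on NASH-AA. The ranges overlapped throughout. Its average diet effect was 0.06 ± 0.06 (SE, adjusted p = 0.553), with a 95% interval of -0.06 to 0.18, and its average genotype effect 0.08 ± 0.06 (SE, adjusted p = 0.373). Cyp39a1, which hydroxylates 24-hydroxycholesterol, ran from 3.46 to 11.3 CPM over all libraries and had an average diet effect of -0.37 ± 0.16 (SE, adjusted p = 0.126).

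The ring and side-chain enzymes, which reshape the sterol nucleus, shorten the side chain and prepare conjugation, held 6 of the 13 genes called anywhere. Of these 8 enzymes, 5 were higher in FAAH S268D and 3 higher with NASH-AA on average, and 0 were lower. Of all genes, 6.9% were higher and 10.3% lower for genotype, and 4.62% higher and 6.27% lower for diet. Slc27a5 (chr7:12988346-12998192, minus strand), the bile acid-CoA ligase that activates bile acids for conjugation, was higher in FAAH S268D and higher with NASH-AA. In WT NASH, Slc27a5 ran from 425 to 698 CPM with a median of 527, and in WT NASH-AA from 605 to 797 with a median of 698. In FAAH S268D NASH, Slc27a5 ran from 543 to 969.8 CPM with a median of 751, and in FAAH S268D NASH-AA from 737 to 1041 with a median of 897. The WT NASH libraries were mostly the lowest and the FAAH S268D NASH-AA libraries the highest, each group overlapping its neighbours. The average genotype effect was 0.43 ± 0.07 (SE, adjusted p = 0.000352) and the average diet effect 0.29 ± 0.07 (SE, adjusted p = 0.0147). On NASH alone the genotype effect was 0.49 ± 0.10 (SE, adjusted p = 0.0054), and on NASH-AA alone 0.37 ± 0.11 (SE, adjusted p = 0.0994). All 3 calls held in each of the 32 fits that left out 1 library. With the 2 groups fitted alone, the genotype effect on NASH had adjusted p = 0.0792.

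Akr1d1 (chr6:37530173-37568815, plus strand), the 5-beta-reductase that sets the bent ring shape of bile acids, showed the same order of groups. Akr1d1 stood at 43.2 to 93.0 CPM (median 59.2) in WT NASH and at 56.3 to 127 (median 88.3) in WT NASH-AA. Akr1d1 stood at 53.9 to 157 CPM (median 94.2) in FAAH S268D NASH and at 85.3 to 145 (median 119) in FAAH S268D NASH-AA. The lowest FAAH S268D NASH-AA library lay above 6 of 8 WT NASH libraries. The average genotype effect was 0.52 ± 0.14 (SE, adjusted p = 0.0106) and the average diet effect 0.46 ± 0.14 (SE, adjusted p = 0.0341). The genotype call held in all 32 fits that left out 1 library, and the diet call was lost in 13, up to adjusted p = 0.0669 without FAAH S268D NASH replicate 5.

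Hsd3b7 (chr7:127800604-127803802, plus strand), the 3-beta-hydroxysteroid dehydrogenase of early ring change, was higher in FAAH S268D. The WT libraries held 339 to 540.0 CPM of Hsd3b7 on NASH (median 382) and 390.4 to 547 on NASH-AA (median 426). The FAAH S268D libraries held 355 to 640.3 CPM of Hsd3b7 on NASH (median 474) and 391 to 523 on NASH-AA (median 484). WT NASH replicate 5, at 540.0 CPM, reached into the upper FAAH S268D NASH range, and the other 7 were at or under 402. The genotype effect was 0.32 ± 0.10 (SE, adjusted p = 0.0325) on NASH, 0.12 ± 0.10 (SE, adjusted p = 0.578) on NASH-AA and 0.22 ± 0.07 (SE, adjusted p = 0.0242) on average. Its exons share 1729 and 1717 of 2769 bases with 9430064I24Rik and Gm49388, which had 601 and 8400 counts against 327439 for Hsd3b7. Its counts were fractional in 31 of 32 libraries (more than 0.01 from a whole number), so some reads were divided between genes. The call on NASH was lost in 7 of 32 fits that left out 1 library, up to adjusted p = 0.0864 without FAAH S268D NASH replicate 4.

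Amacr (chr15:10981756-10996626, plus strand), the racemase that readies the side chain for peroxisomal oxidation, was higher in FAAH S268D. For Amacr, the lowest, median and highest WT libraries were at 86.5, 96.2 and 122 CPM on NASH, and at 95.9, 116 and 139 on NASH-AA. For Amacr, the lowest, median and highest FAAH S268D libraries were at 95, 120.1 and 176 CPM on NASH, and at 109, 129 and 155 on NASH-AA. Every FAAH S268D NASH-AA library lay above the WT NASH median, and all groups overlapped. FAAH S268D NASH was itself divided, with replicates 1 to 4 at 126 to 176 CPM and replicates 5 to 8 at 95 to 114, the latter inside the WT NASH range. The genotype effect was 0.32 ± 0.10 (SE, adjusted p = 0.0445) on NASH and 0.27 ± 0.07 (SE, adjusted p = 0.00976) on average. The call on NASH was lost in 11 of 32 fits that left out 1 library, up to adjusted p = 0.122 without FAAH S268D NASH replicate 4, and the average was kept in all 32.

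Slc27a2 (chr2:126552407-126588243, plus strand), a very long chain acyl-CoA synthetase that also acts on the side chain of bile acid precursors, rose by less. In WT NASH, Slc27a2 ran from 1093 to 1702 CPM with a median of 1289, and in WT NASH-AA from 1151 to 1690.0 with a median of 1351. In FAAH S268D NASH, Slc27a2 ran from 1270.3 to 1899 CPM with a median of 1485, and in FAAH S268D NASH-AA from 1225 to 1869.6 with a median of 1673. The FAAH S268D libraries were higher as a group and overlapped the WT libraries on both diets. In FAAH S268D NASH, replicates 1 to 4 held 1526 to 1899 CPM of Slc27a2 and replicates 5 to 8 held 1270.3 to 1444, the latter inside the WT NASH range. Its average genotype effect was 0.24 ± 0.07 (SE, adjusted p = 0.017), and its average diet effect 0.08 ± 0.07 (SE, adjusted p = 0.45).

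Cyp2c70 (chr19:40153353-40187333, minus strand), the mouse enzyme that makes muricholic acids, was higher with NASH-AA. Cyp2c70 stood at 106 to 249 CPM (median 148) in WT NASH and at 148 to 382 (median 199.6) in WT NASH-AA. Cyp2c70 stood at 87.8 to 359 CPM (median 202) in FAAH S268D NASH and at 212 to 381 (median 289) in FAAH S268D NASH-AA. Every FAAH S268D NASH-AA library exceeded 7 of the 8 WT NASH libraries. Diet changed it by 0.49 ± 0.16 (SE, adjusted p = 0.0414) on average, and the average genotype effect was 0.42 ± 0.16 (SE, adjusted p = 0.064). The diet call was lost in 17 of 32 fits that left out 1 library, up to adjusted p = 0.074 without FAAH S268D NASH replicate 5. Without that same library the average genotype effect passed, at 0.50 (adjusted p = 0.0119).

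The remaining side-chain enzymes, Acox2 and Scp2, act in peroxisomes. Acox2, the branched-chain acyl-CoA oxidase, ran from 164 to 282 CPM over all libraries, with average effects of 0.12 for diet and 0.02 for genotype. Scp2 ran from 2853 to 4257 CPM. Its diet effect was 0.09 in WT and -0.21 in FAAH S268D, and the difference between them, the interaction, was -0.30 ± 0.10 (SE, adjusted p = 0.906). Neither enzyme was called. Scp2 counts were fractional in 32 of 32 libraries.

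**Figure D2:**
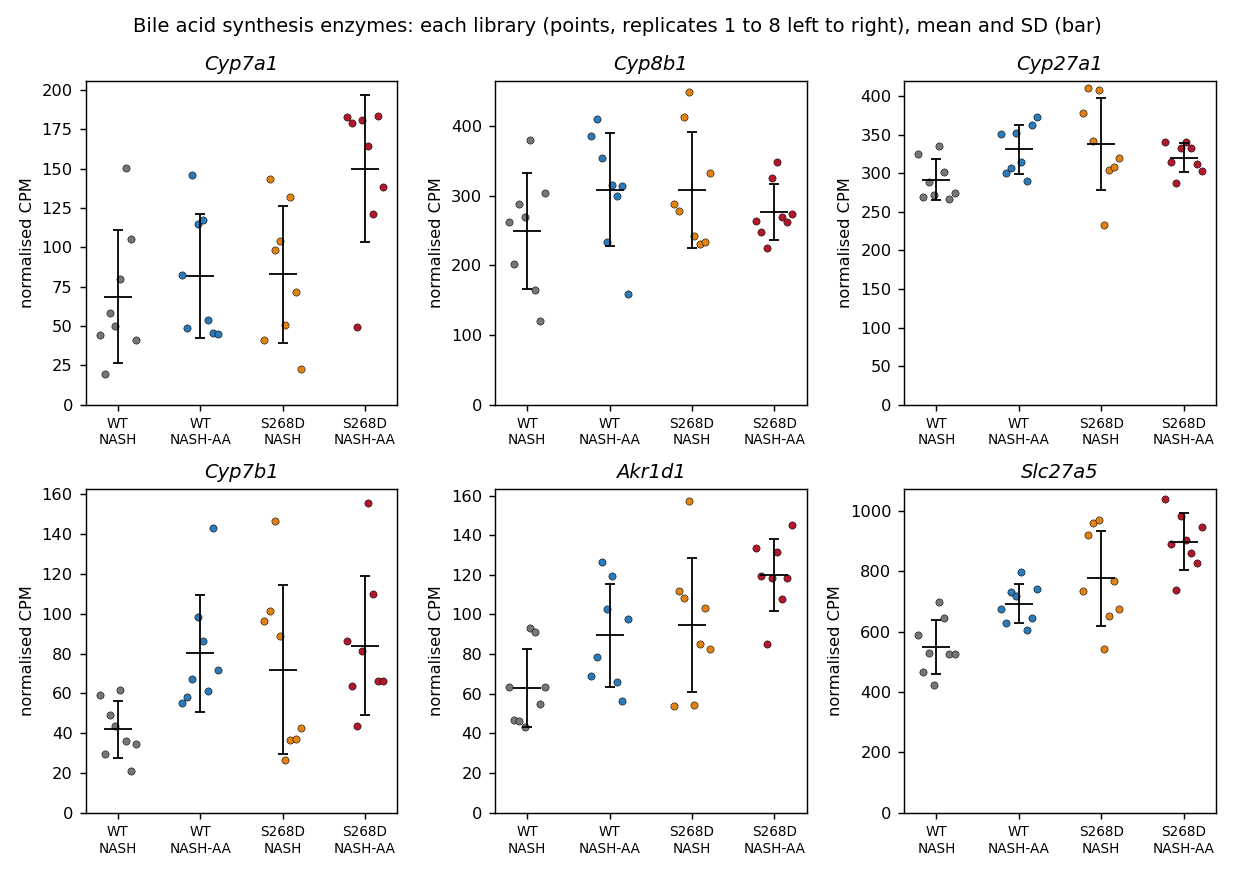
CPM (y axis, from 0) of 6 synthesis enzymes in each library, by group (x axis), with the mean and SD of 8 libraries. The single low point of Cyp7a1 in FAAH S268D NASH-AA is replicate 3 at 49.3 CPM, and Slc27a5 medians run from 527 CPM in WT NASH to 897 in FAAH S268D NASH-AA.

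On the canalicular side, where bile is formed, 1 of 4 genes was called, for the average genotype effect, which called 17.2% of all genes. Abcb4 (chr5:8893717-8959231, plus strand), the flippase that moves phosphatidylcholine into bile, was lower in FAAH S268D. The WT libraries held 320.2 to 450.4 CPM of Abcb4 on NASH (median 407) and 315 to 378 on NASH-AA (median 350.1). The FAAH S268D libraries held 279 to 453 CPM of Abcb4 on NASH (median 344) and 249 to 339 on NASH-AA (median 305). The FAAH S268D NASH-AA libraries were the lowest group, and its highest library lay under 7 of the 8 WT NASH libraries. The average genotype effect was -0.20 ± 0.06 (SE, adjusted p = 0.0254) and the average diet effect -0.18 ± 0.06 (SE, adjusted p = 0.0551). The genotype call held in all 32 fits that left out 1 library. It was -0.33 in library numbers 1 to 16 alone and -0.01 (adjusted p = 0.973) in numbers 17 to 32 alone. Abcb4 counts were fractional in 32 of 32 libraries.

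Abcb11 (chr2:69238282-69342616, minus strand), the bile salt export pump with the upstream inverted repeat printed above, was called in none of the 7 contrasts. For Abcb11, the lowest, median and highest WT libraries were at 289, 364 and 439 CPM on NASH, and at 277, 370.2 and 486 on NASH-AA. For Abcb11, the lowest, median and highest FAAH S268D libraries were at 283, 423 and 452 CPM on NASH, and at 336, 400.2 and 518 on NASH-AA. No group stood apart. Its average diet effect was 0.01 ± 0.08 (SE, adjusted p = 0.931), with a 95% interval of -0.15 to 0.18, and the average genotype effect 0.12 ± 0.08 (SE, adjusted p = 0.32), with an interval of -0.04 to 0.28. Abcc2, the exporter of conjugated bilirubin and divalent bile acids, ran from 339 to 842 CPM, with an average genotype effect of -0.06 ± 0.10 (SE, adjusted p = 0.716). Atp8b1, a phospholipid flippase of the canalicular membrane, ran from 15.5 to 48.1 CPM, with an average genotype effect of 0.10 ± 0.09 (SE, adjusted p = 0.465).

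On the basolateral side, Slc51b was the gene with the largest called change of the set, at very low counts. Slc51b (chr9:65412714-65422955, minus strand) encodes the beta subunit of the organic solute transporter, a known FXR target that carries bile acids out to blood. In WT NASH, Slc51b ran from 0.330 to 0.926 CPM with a median of 0.575, and in WT NASH-AA from 0.0833 to 0.601 with a median of 0.229. In FAAH S268D NASH, Slc51b ran from 0.0469 to 1.38 CPM with a median of 0.421, and in FAAH S268D NASH-AA from 0 to 0.353 with a median of 0.0943. Behind these levels were 121, 50, 66 and 24 counts over the 8 libraries of WT NASH, WT NASH-AA, FAAH S268D NASH and FAAH S268D NASH-AA. Of the FAAH S268D NASH-AA libraries, 3 of 8 had 0 counts, and every other group had none at 0. The highest library, FAAH S268D NASH replicate 1 at 1.38 CPM, is the shallowest and rests on 5 counts.

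On average over genotypes, the diet effect on Slc51b was -1.55 ± 0.35 (SE, adjusted p = 0.00723) and the average genotype effect -1.04 ± 0.35 (SE, adjusted p = 0.0399). The diet call held in all 32 fits that left out 1 library, between -1.72 and -1.41. The genotype call was lost in 16 of them, up to adjusted p = 0.0776 without FAAH S268D NASH-AA replicate 6. The WT diet effect alone was -1.30 ± 0.43 (SE, adjusted p = 0.0655). Of its 709 exon bases, 91 are shared with Rasl12 on the other strand, a gene with 89 counts in all. Its alpha partner Slc51a had 1, 5, 0 and 4 counts in the same order of groups; the 0 in FAAH S268D NASH allows a level up to 0.0175 CPM (3 counts over the group, counting error only).

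Abcc3, a basolateral exporter of conjugated organic anions, ran from 304 to 681 CPM. Its genotype effect was -0.29 ± 0.12 (SE, adjusted p = 0.133) on NASH and -0.20 ± 0.09 (SE, adjusted p = 0.115) on average. Abcc4, which exports bile acids with glutathione, ran from 2.51 to 16.2 CPM, with an average genotype effect of -0.48 ± 0.21 (SE, adjusted p = 0.122). Both genes split by replicate number in FAAH S268D NASH. Abcc3 lay between 304 and 458 CPM in replicates 1 to 4 and between 541 and 589 in replicates 5 to 8. Abcc4 lay between 3.04 and 4.08 in the former and between 7.24 and 10.9 in the latter.

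Among the 5 uptake carriers of the basolateral membrane, 2 were higher with NASH-AA and 2 higher in FAAH S268D on average. The shares of all genes called higher were 4.62% for diet and 6.9% for genotype. Slco1b2 (chr6:141629518-141686646, plus strand), an organic anion carrier known for taking up unconjugated bile acids, was higher with NASH-AA. Slco1b2 stood at 570.2 to 791 CPM (median 613) in WT NASH and at 685 to 853 (median 786) in WT NASH-AA. Slco1b2 stood at 539.5 to 838 CPM (median 734) in FAAH S268D NASH and at 691 to 1108 (median 874) in FAAH S268D NASH-AA. In WT, every NASH-AA library lay above 7 of the 8 NASH libraries, replicate 5 at 791 CPM being the exception. The average diet effect was 0.30 ± 0.07 (SE, adjusted p = 0.00729), and 0.29 and 0.31 in WT and FAAH S268D separately. The call held in all 32 fits that left out 1 library. Without FAAH S268D NASH replicate 1, the average genotype effect of 0.16 ± 0.07 (SE, adjusted p = 0.116) also passed, at 0.19 (adjusted p = 0.035).

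Slco2b1 (chr7:99657804-99711340, minus strand), an anion carrier of broad substrates, rose in the same comparison. The WT libraries held 151 to 216 CPM of Slco2b1 on NASH (median 183) and 197 to 251 on NASH-AA (median 217). The FAAH S268D libraries held 163 to 259 CPM of Slco2b1 on NASH (median 209) and 216 to 265 on NASH-AA (median 232). In WT, the NASH-AA libraries all lay above 7 of the 8 NASH libraries. The diet effect was 0.30 ± 0.08 (SE, adjusted p = 0.0345) in WT and 0.24 ± 0.06 (SE, adjusted p = 0.00917) on average, and the average genotype effect was 0.16 ± 0.06 (SE, adjusted p = 0.0453). The WT diet call was lost in 9 of 32 fits that left out 1 library, up to adjusted p = 0.0835 without WT NASH replicate 4. The genotype call was lost in 20, up to adjusted p = 0.0743 without FAAH S268D NASH-AA replicate 2.

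Slco1a4 (chr6:141805440-141856199, minus strand), a carrier of organic anions and bile acids with higher expression in female mouse liver, differed between genotypes on NASH-AA. For Slco1a4, the lowest, median and highest WT libraries were at 12.5, 24.9 and 46.4 CPM on NASH, and at 8.53, 17.8 and 24.4 on NASH-AA. For Slco1a4, the lowest, median and highest FAAH S268D libraries were at 12.4, 27.1 and 40.3 CPM on NASH, and at 17.6, 45.2 and 64.2 on NASH-AA. On NASH-AA, 6 of 8 FAAH S268D libraries lay above every WT library, and replicates 5 and 6 lay within the WT range. The genotype effect was 1.29 ± 0.29 (SE, adjusted p = 0.0271) on NASH-AA, 0.04 ± 0.29 (SE, adjusted p = 0.944) on NASH and 0.67 ± 0.21 (SE, adjusted p = 0.0251) on average. The difference between the 2 diet effects, 1.25 ± 0.41 (SE, adjusted p = 0.906), did not pass, so the genotype effect is not shown to differ between diets. The call on NASH-AA was lost in 9 of 32 fits that left out 1 library, up to adjusted p = 0.0782 without WT NASH-AA replicate 7. Slco1a4 counts were fractional in 31 of 32 libraries, as were those of its neighbour Slco1a1 in 30.

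Slc10a1 (chr12:80953183-80968705, minus strand), the sodium-taurocholate cotransporter NTCP, was not called. In WT NASH, Slc10a1 ran from 184 to 319 CPM with a median of 205, and in WT NASH-AA from 243 to 405 with a median of 289.9. In FAAH S268D NASH, Slc10a1 ran from 176 to 563 CPM with a median of 272, and in FAAH S268D NASH-AA from 218 to 498 with a median of 310.4. FAAH S268D NASH held both the highest and the lowest libraries of all 32. Replicates 1 to 4 of that group lay between 319.7 and 563 CPM and replicates 5 to 8 between 176 and 224. The average diet effect was 0.29 ± 0.14 (SE, adjusted p = 0.154) and the average genotype effect 0.25 ± 0.14 (SE, adjusted p = 0.223). Slco1a1, a carrier with higher expression in male mouse liver, ran over the libraries from 0.463 to 238 CPM, with an average genotype effect of 1.56 ± 0.69 (SE, adjusted p = 0.117). It also split in FAAH S268D NASH, with 41.8 to 186 CPM in replicates 1 to 4 and 4.48 to 20.3 in replicates 5 to 8.

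**Figure D3:**
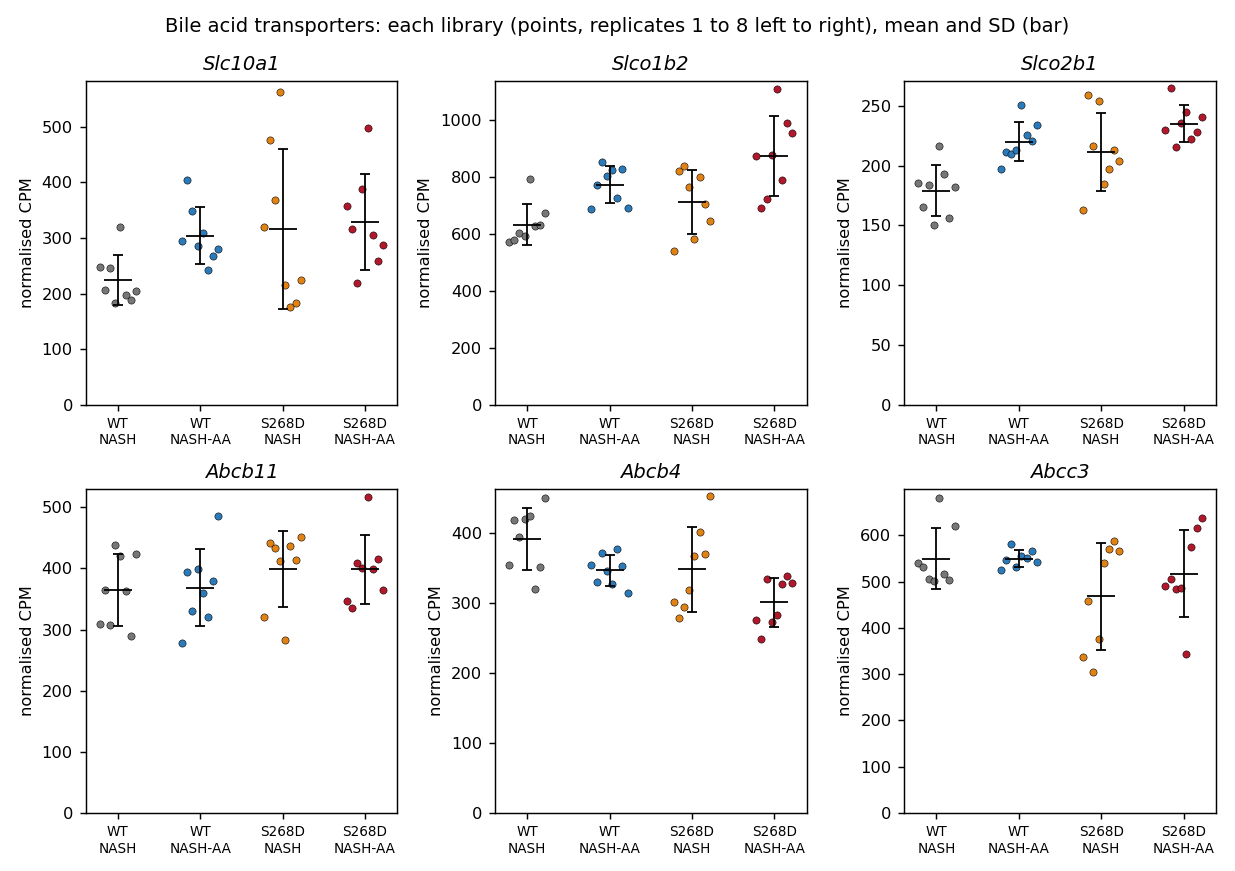
CPM (y axis, from 0) of 6 transporters in each library by group (x axis), with the mean and SD of 8 libraries. Slc10a1 in FAAH S268D NASH is high in replicates 1 to 4 and low in replicates 5 to 8, and Abcc3 the other way round.

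**Figure D4:**
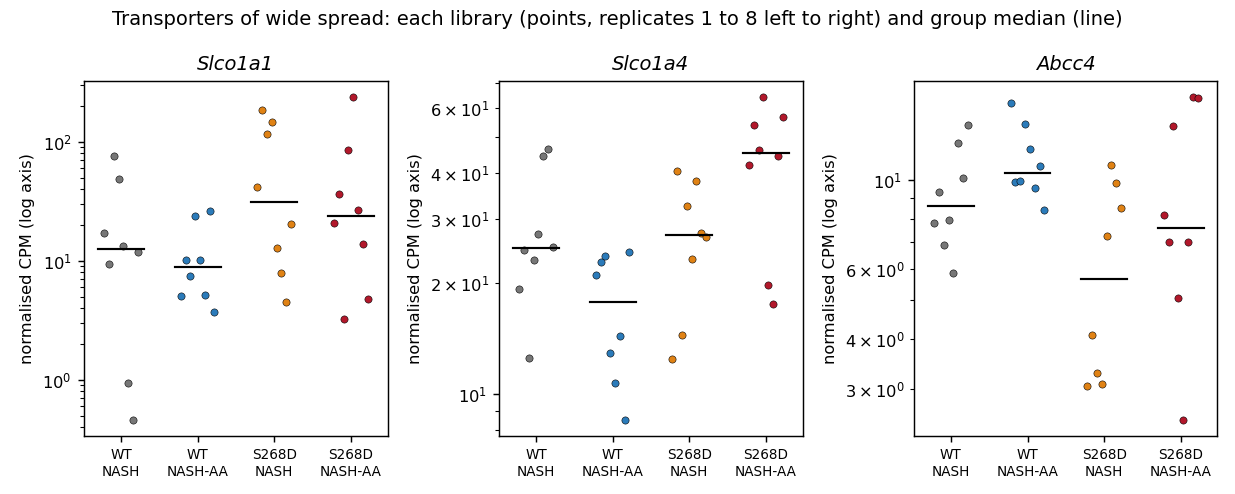
CPM on a log axis (y) of Slco1a1, Slco1a4 and Abcc4 in each library by group (x axis), with a line at the group median. Slco1a1 spans 0.463 to 238 CPM, and Slco1a4 has its highest median, 45.2 CPM, in FAAH S268D NASH-AA.

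Of the receptors and regulators, 1 of 5 tested was called, for the average genotype effect, which called 17.2% of all genes. Nr0b2 (chr4:133553376-133556536, plus strand) encodes SHP, the repressor that FXR induces and that lowers Cyp7a1 and Cyp8b1. The WT libraries held 15.5 to 39.5 CPM of Nr0b2 on NASH (median 25.3) and 15.2 to 46.3 on NASH-AA (median 32.4). The FAAH S268D libraries held 21.8 to 59.3 CPM of Nr0b2 on NASH (median 46.1) and 18.1 to 64.6 on NASH-AA (median 47.8). The FAAH S268D groups reached higher, with 4 of 8 NASH libraries and 4 of 8 NASH-AA libraries above 50 CPM and 0 of 16 WT libraries, while their lower libraries lay among the WT values. The average genotype effect was 0.60 ± 0.18 (SE, adjusted p = 0.0207), with 0.74 ± 0.25 (SE, adjusted p = 0.0606) on NASH and 0.45 ± 0.25 (SE, adjusted p = 0.387) on NASH-AA. Its average diet effect was 0.22 ± 0.18 (SE, adjusted p = 0.445). The genotype call held in all 32 fits that left out 1 library. It was 0.25 (adjusted p = 0.579) in library numbers 1 to 16 alone and 0.94 (adjusted p = 0.127) in numbers 17 to 32 alone. Nr0b2 lies 17.5 Mb from Faah on chromosome 4, where Scp2 (7.8 Mb) and Cyp7a1 (109.7 Mb) also lie; the part of linked sequence in their values was not tested.

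Nr1h4 (chr10:89454234-89533585, minus strand), the receptor FXR itself, was not called. For Nr1h4, the lowest, median and highest WT libraries were at 88.9, 99.3 and 106 CPM on NASH, and at 91.3, 112 and 124 on NASH-AA. For Nr1h4, the lowest, median and highest FAAH S268D libraries were at 97.8, 109.9 and 123 CPM on NASH, and at 86.8, 120.1 and 144 on NASH-AA. The WT NASH libraries were the lowest group and overlapped the rest. Averaged over genotypes, the diet effect was 0.13 ± 0.06 (SE, adjusted p = 0.138) and the average genotype effect 0.13 ± 0.06 (SE, adjusted p = 0.122). Both passed without FAAH S268D NASH-AA replicate 3, at 0.16 each (adjusted p = 0.0396 and 0.0305). Nr5a2, which encodes the SHP partner LRH-1, ran from 30.1 to 58.7 CPM, with an average diet effect of 0.14 ± 0.06 (SE, adjusted p = 0.115).

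Neither gene of the receptor pair for gut FGF15 was called. Fgfr4 ran from 29.4 to 43.0 CPM, with an average diet effect of 0.11 ± 0.05 (SE, adjusted p = 0.112). Its co-receptor beta-Klotho, Klb, ran from 10.8 to 33.1 CPM, with an average diet effect of 0.13 ± 0.10 (SE, adjusted p = 0.4). Gpbar1 was listed with 15, 7, 3 and 4 counts over the 8 libraries of WT NASH, WT NASH-AA, FAAH S268D NASH and FAAH S268D NASH-AA, too few to test.

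**Figure D5:**
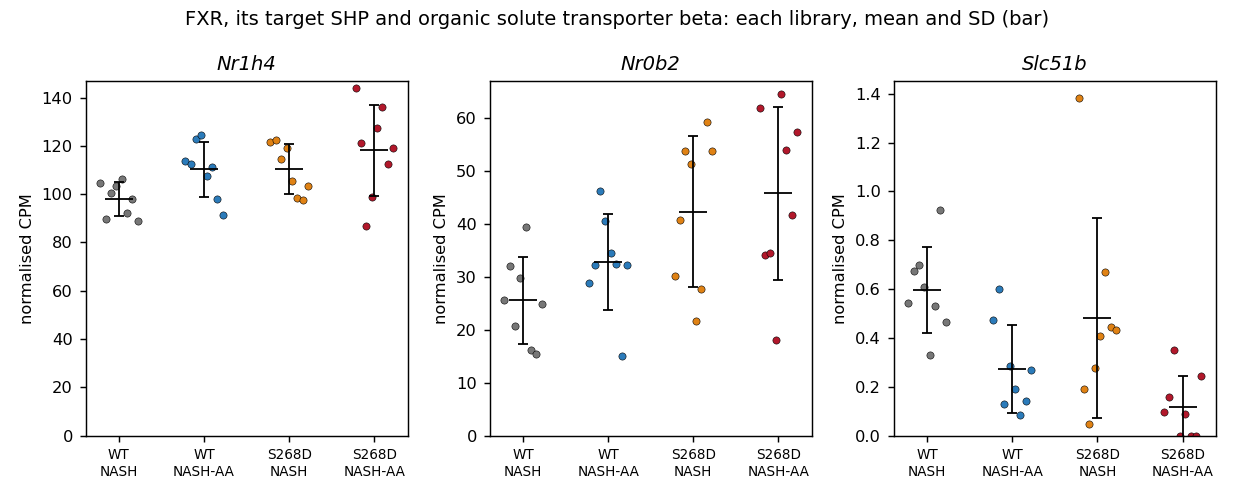
CPM (y axis, from 0) of Nr1h4, Nr0b2 and Slc51b in each library by group (x axis), with the mean and SD of 8 libraries. Nr0b2 medians are 25.3 and 32.4 CPM in the WT groups and 46.1 and 47.8 in the FAAH S268D groups, and Slc51b is at 0 in 3 libraries of FAAH S268D NASH-AA.

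No difference between the 2 diet effects was called: limma-voom and limma-trend both called 0 of 30 genes for the interaction, against 0% of all genes. Scp2, Slco1a4 and Cyp27a1 (interaction -0.25) were the 3 with an unadjusted p under 0.05. So no gene of the set is shown to respond to diet differently in FAAH S268D and WT.

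The library names in the labels end in numbers from 1 to 32, and every group has libraries in both 1 to 16 and 17 to 32. The ranges are not balanced: numbers 1 to 16 hold replicates 1 to 5 of FAAH S268D NASH and 1 to 3 of WT NASH-AA. Numbers 17 to 32 hold replicates 6 to 8 of the former and 4 to 8 of the latter. In numbers 1 to 16 alone, 3 of 30 genes were called for the average genotype effect (Slc27a5 at 0.56, Slco1a4 at 0.75, Abcb4 at -0.33), against 5.42% of all genes. For diet 0 of 30 were called there, against 0.0872% of all genes. In numbers 17 to 32 alone, 0 of 30 were called for genotype, against 0.403% of all genes. For diet 9 of 30 were called there, against 13.4% of all genes, among them Slc51b at -2.22, Slco1b2 at 0.30 and Slco2b1 at 0.24. The replicates 1 to 4 of FAAH S268D NASH, which stood high for Slc10a1, Slco1a1, Cyp7b1 and Cyp2c70, carry numbers 3, 6, 10 and 11. Replicates 5 to 8, which stood low, carry numbers 14, 26, 27 and 28. The split within that group thus follows the order of the library numbers, and only replicate 5 breaks the 2 ranges. The part of library order in the split was not tested. Nor was the part of the split in differences between the ranges, those of Abcb4 and Cyp7b1 above included.

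That split was shared by several members. In replicates 1 to 4 against 5 to 8, Cyp7b1 lay at 88.6 to 146 against 26.4 to 42.8 CPM. Cyp2c70 lay at 245 to 359 against 87.8 to 159. Abcb4 lay at 279 to 319 against 368 to 453. Cyp27a1 lay at 343 to 411 against 234 to 320.1, Nr1h4 at 114 to 123 against 97.8 to 105, and Abcc2 at 339 to 669 against 677 to 827. With Amacr, Slc27a2, Slc10a1, Slco1a1, Abcc3 and Abcc4 above, these are the members whose ranges did not overlap. The split was noticed in the values, and no test was made of it. The share of all genes whose ranges did not overlap was not counted, so the split is not shown to be particular to this set. Along the first principal component of all genes, 24.2% of the variance, replicates 1 to 4 scored 19.7 to 46.6 and replicates 5 to 8 scored -41.5 to -9.45. The shallowest library is replicate 1, which also stood apart along the second principal component of all genes, at -98.7. All other libraries lay between -21.9 (WT NASH replicate 1) and 21.3 (FAAH S268D NASH replicate 2). Without FAAH S268D NASH replicate 1, the average genotype effect called 11 of 30 genes and the average diet effect 8. The shares of all genes called without it are not given here.

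Other genes of the pathway, 42 listed and 37 tested, gave 7 higher and 1 lower for the average genotype effect and 8 higher and 1 lower for the average diet effect, with medians of 0.10 and 0.08. That was 21.6% of the 37 for genotype, against 17.2% of all genes, and 24.3% for diet, against 10.9%. Cyp46a1, the cholesterol 24-hydroxylase, rose with NASH-AA by 0.71 ± 0.14 (SE, adjusted p = 0.00272). Akr1c14, a hydroxysteroid dehydrogenase, rose with NASH-AA by 0.54 ± 0.11 (adjusted p = 0.00325). The receptor CAR, Nr1i3, rose with NASH-AA by 0.74 ± 0.17 (adjusted p = 0.00697). In FAAH S268D, Cyp2a12 was higher by 0.33 ± 0.07 (adjusted p = 0.00222). S1pr2, a sphingosine 1-phosphate receptor that conjugated bile acids also activate, fell in FAAH S268D by 0.42 ± 0.08 on the log2 scale (adjusted p = 0.00116). The gut genes Fgf15 and Fabp6 were at 0 in every library.

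Markers of several other liver cells moved in the same comparisons. Beside them, 6.9% of all genes were higher and 10.3% lower for genotype, and 4.62% higher and 6.27% lower for diet. Hepatocyte markers were higher in 6 of 15 for the average genotype effect (median 0.24) and in 4 of 15 for the average diet effect (median 0.20), the summed levels being those given above. Macrophage and monocyte markers were lower in 13 of 15 (median -0.82) for genotype and 8 of 15 (median -0.52) for diet. Their summed level ran from 459.8 to 1330.5 in WT NASH, 498 to 702 in WT NASH-AA, 296 to 715 in FAAH S268D NASH and 282 to 553 in FAAH S268D NASH-AA CPM. Cholangiocyte and ductular markers, from the cells that line bile ducts and also express Slc51b, were lower in 5 of 14 tested for diet (median -0.49) and called in 0 of 14 for genotype (median -0.14). Their summed level ran from 181 to 308 in WT NASH, 110.5 to 199 in WT NASH-AA, 86.7 to 447 in FAAH S268D NASH and 101 to 204 in FAAH S268D NASH-AA CPM.

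For the average genotype effect, T and NK cell markers were lower in 6 of 8 tested (median -0.72), neutrophil markers in 3 of 3 (median -1.001), stellate cell and matrix genes in 3 of 12 (median -0.38) and Kupffer cell markers in 1 of 8 (median -0.33). Of all genes, 10.3% were lower in that comparison, and the Kupffer count lies near that share. For diet, 6.27% of all genes were lower and 4.62% higher. The T and NK cell markers summed to 4.65 to 12.9 CPM in WT NASH, 4.65 to 11.5 in WT NASH-AA, 3.91 to 9.68 in FAAH S268D NASH and 3.99 to 6.72 in FAAH S268D NASH-AA. Neutrophil markers summed to 5.44 to 22.2 CPM in WT NASH, 6.49 to 10.9 in WT NASH-AA, 3.49 to 9.68 in FAAH S268D NASH and 3.76 to 10.7 in FAAH S268D NASH-AA. Stellate cell and matrix genes summed to 438 to 849.98 CPM in WT NASH, 453 to 719 in WT NASH-AA, 299.9 to 949.6 in FAAH S268D NASH and 284 to 804 in FAAH S268D NASH-AA. For diet, 0 of 8, 1 of 3 (lower), 0 of 12 and 0 of 8 of these lists were called. Sinusoidal endothelial markers were called in 0 of 10 for genotype and lower in 2 of 10 for diet. Of the B and plasma cell markers, 0 of 6 were called in either average. Erythroid, gut and adipose genes were called in 0 of 5, 0 of 3 and 0 of 1 for genotype; for diet, Alas2 and Cfd were higher and Fabp2 was lower.

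Pericentral hepatocyte genes were higher in 7 of 9 for diet (median 0.38) and in 1 of 9 for genotype (median 0.11), and Cyp7a1 is itself a pericentral gene. Periportal genes were higher in 5 of 8 for genotype (median 0.34) and, for diet, lower in 1 of 8 and higher in 0 (median 0.12). Of 9 male-biased liver genes, which include Slco1a1 and Cyp7b1, 0 were called for genotype, and 2 were higher for diet (Cyp7b1 itself and Cyp2d9) and 1 lower (Mup20). Of 7 female-biased genes tested, the 1 higher for genotype was Slco1a4 itself, so that count adds nothing to its own value, and the 2 higher for diet were Cyp2b9 and Cyp2b13. For these lists too, the shares of all genes called were 6.9% higher and 10.3% lower for genotype. For diet they were 4.62% higher and 6.27% lower. The part of these cell types and zones in the values of the bile acid genes was not tested.

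Across the 32 libraries, 6 relations were examined between genes of known regulation, after the group means were removed and by permutation within groups. Of the 6, 0 passed after adjustment, with adjusted p from 0.197 to 0.955 for Pearson's r. The closest was SHP with the export pump: Nr0b2 and Abcb11 had Pearson's r = 0.36 (permutation p = 0.050, adjusted p = 0.197) and Spearman's rho = 0.38 (permutation p = 0.0389, adjusted p = 0.176). It was 0.36 and 0.35 in library numbers 1 to 16 and 17 to 32, and 0.37 without the 2 libraries farthest from the Nr0b2 median. Nr0b2 and Cyp8b1 had r = 0.33 and rho = 0.35 (permutation p = 0.0657 and 0.0586), with r = 0.29 without the 2 farthest libraries. Nr0b2 and Cyp7a1 had r = -0.01 and rho = 0.05 (permutation p = 0.955 and 0.812), with r = -0.03 without the 2 farthest. Cyp7a1 and Cyp8b1 had r = -0.02 and rho = -0.04 (permutation p = 0.924 and 0.835), with 0.45 in numbers 1 to 16 and -0.27 in numbers 17 to 32. Cyp7a1 and Cyp7b1 had r = 0.20 and rho = 0.19 (permutation p = 0.321 and 0.332), with 0.45 and -0.06 in the same ranges. Abcb11 and Slc51b had r = -0.24 and rho = -0.24 (permutation p = 0.195 and 0.178), with -0.35 and 0.03.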

How the data were processed

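Whole-liver RNA was taken up in TRIzol and sequenced as polyA libraries, per the labels' protocols. Per the submitters' processing notes, the tools were STAR 2.7.10 with GRCm38, UMI-tools 1.1.2 and Trim Galore 0.6.7. Which program counted the reads, on what annotation and with what strand setting, is not given in the sources used here. The authors deposited estimated counts per gene, of which 52450 of 1775584 cells had been altered by a spreadsheet and did not read as plain numbers. They were turned back by fixed rules, and where 2 originals were possible (6 of 1024 cells of these genes, at most 0.72 counts apart) the one closer to the gene's depth-scaled median was taken. The unit was therefore recorded as other than counts, and the test was limma-voom (limma 3.58.1, R 4.3.3) on rounded values.

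A gene was tested if at least 8 libraries reached the CPM that 10 counts make at median depth, and if its total was at least 15. TMM factors (own code) trimmed 30% of the log ratios and 5% of the mean levels; the prior count was 0.5. All 32 libraries shared 1 spread per gene, and p-values were adjusted by Benjamini-Hochberg over 14903 genes in each of 7 contrasts. Tested on simulated counts of 14903 genes for the diet effect in WT, the fit found 81 of 100 true 2-fold changes and 93 of 100 true 4-fold changes; of its 187 calls, 13 were false. Apart from those of Slc51b, the called average effects of the set were smaller than 2-fold. How often the fit finds changes of that size was not tested, nor were its rates in the other contrasts. Relations used 100000 permutations. Positions are from a GENCODE annotation and upstream sequences from RefSeq.

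The members, the lists of other pathway genes and of cell, zone and sex markers, and the tests were chosen with earlier results of these data known. Values by group were given for every member called in any contrast and for Cyp7a1, Cyp8b1, Cyp27a1, Cyp7b1, Abcb11, Slc10a1, Nr1h4 and Nr0b2. Other members were given by their range, and other pathway genes by at most 6 with the smallest p among those called. Alternatives were another scaling, other filters, the replicate number as a block, library numbers as a term or each range alone, the compared groups fitted alone, limma-trend, sample quality weights, the other reading of ambiguous cells, and leaving out each library.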

Additional observations from a re-analysis of the deposited data

Results flagged for a closer look

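In 120 groups of 8 libraries (30 genes in 4 groups), 12 held a library whose gap to its nearest neighbour exceeded Dixon's 95% critical share of the group's range; chance flags about 1 in 20 groups, or 6 here. WT NASH replicate 5 was the highest of its group for 4 genes: Hsd3b7 at 540.0 CPM (next 402), Acox2 at 266 (next 205), Slc10a1 at 319 (next 247) and Slco1b2 at 791 (next 672). FAAH S268D NASH-AA replicate 5 was the highest for Abcb11 at 518 CPM (next 416) and Slco1a1 at 238 (next 85.7). FAAH S268D NASH replicate 1, the shallowest library, was the highest for Slc51b at 1.38 CPM (next 0.669) and the lowest for Atp8b1 at 15.5 (next 29.8) and Nr5a2 at 30.1 (next 43.5). In FAAH S268D NASH-AA, Cyp7a1 was lowest in replicate 3 at 49.3 CPM (next 121). Cyp2c70 was highest in WT NASH-AA replicate 8 at 382 CPM (next 246), and Atp8b1 was lowest in WT NASH replicate 1 at 24.6 (next 32.1).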

How the results depend on the processing

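Of 30 tested genes, the counts called moved by more than 1.5 times under these settings, and the cause was not tested. Apart from the average effects in each range of library numbers, the shares of all genes called under these settings are not given here. So no count below is shown to move more than that of all genes. The diet effect in WT (1 gene) gave 2 with a stricter filter, 0 in library numbers 1 to 16 or 17 to 32 alone, 12 with sample quality weights and 6 with its groups fitted alone. The diet effect in FAAH S268D (0) gave 1 in numbers 17 to 32 alone and 4 with sample quality weights. The genotype effect on NASH (3) gave 1 in numbers 1 to 16 alone, 0 in 17 to 32 alone, 5 with weights and 0 with its groups fitted alone. On NASH-AA (1) it gave 0 in either range alone, 3 with weights and 2 with its groups fitted alone. The average diet effect (7) gave 0 in numbers 1 to 16 alone and 16 with weights, and the average genotype effect (10) gave 3 in numbers 1 to 16 alone and 0 in 17 to 32 alone. Each range alone has 16 libraries, fewer than the full fit. Leaving out 1 library gave 0 to 7, 0 to 3, 1 to 7, 0 to 1, 4 to 10 and 8 to 12 in the same order, and 0 throughout for the interaction. With the replicate number as a block, the counts were 0 for the diet effect in WT, 0 on NASH-AA for genotype, 4 for average diet and 7 for average genotype. Same-numbered libraries did not deviate together, with r from -0.383 to 0.332 and a median of 0.00 over 48 pairs. Of 32 libraries, 5 correlated best with their own number. No pairing by number was seen, but a check of this kind could miss a small shared part. No called fold change turned in sign under any alternative run. Of 223, 167 kept their call and 56 lost it, with an adjusted p no longer under 0.05. These 223 do not include the fits that left out 1 library, whose lost calls are given with each gene above. The other scaling moved the median of all genes by at most 0.01. The 6 relations passed under neither alternative. Slc51b, Slc51a and Gpbar1 are limited by counts.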
